A study of Mus musculus with 11 samples.

Results

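Periostin (Postn) and 9 other genes for matricellular and adhesive matrix proteins were followed in cells of the periostin lineage, collected in place from naive mouse mammary glands. The 10 genes were taken by name from the count table, which holds 19962 endogenous targets, and each has 1 probe: Postn, fibronectin (Fn1), the tenascins Tnc and Tnxb, Sparc and its relative Sparcl1, the thrombospondins Thbs1 and Thbs2, and Ccn1 and Ccn2. Frozen, paraformaldehyde-fixed glands of 3 lineage-tracing mice were profiled with the GeoMx platform, where ultraviolet light frees the barcodes of bound probes over a selected area so that they can be sequenced and counted. The areas held cells positive for ZSGreen, the reporter of periostin expression, in both groups, so every region carries that selection. The groups were 6 Pdpn-adjacent regions (2, 3, 4, 7, 8 and 11), chosen beside podoplanin-stained lymphatic vessels, and 5 SMA-adjacent regions (1, 5, 6, 9 and 10), chosen by the stain for smooth muscle actin that marks ducts and blood vessels. The allele that drives the reporter, the strain and the age of the mice are not given in the sources used here. A reporter of lineage marks cells that express periostin and may also mark cells that once did, so a cell can carry ZSGreen without Postn transcript.

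Matricellular proteins are secreted into the extracellular matrix, where they act less as building blocks than as modulators of adhesion, matrix assembly and growth factor activity. Most bind integrins or other cell surface receptors as well as collagen or fibronectin, and many are induced by transforming growth factor beta or by mechanical load. In the mammary gland they are products mainly of stromal fibroblasts, smooth muscle and pericytes, and endothelium.

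Each probe lies inside its gene on GRCm38.p6 and lists all RefSeq messenger RNAs of that gene, so none of the 10 tells splice forms apart. For Thbs2, Ccn1 and Ccn2 that is 1 transcript each. Whether a target site lies in a coding exon or an untranslated exon was not analysed here. The Postn probe lies on chromosome 3, 54367590 to 54367627, in a gene that spans 54359267 to 54391041, and lists 6 transcripts. The Fn1 probe lies on chromosome 1, 71650597 to 71650634, and lists 15 transcripts, which differ in the alternatively spliced segments of fibronectin. The tenascin probes lie on chromosome 4, 64017291 to 64017326 (Tnc), and chromosome 17, 34673242 to 34673277 (Tnxb). Those of the SPARC family lie on chromosome 11, 55399256 to 55399293 (Sparc), and chromosome 5, 104093113 to 104093150 (Sparcl1). The thrombospondin probes lie on chromosome 2, 118114655 to 118114696 (Thbs1), and chromosome 17, 14690211 to 14690248 (Thbs2). The CCN probes lie on chromosome 3, 145648761 to 145648795 (Ccn1), and chromosome 10, 24596401 to 24596436 (Ccn2), in short genes of 3015 and 3242 bases.

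Promoter sequence from RefSeq on GRCm38.p6 is shown for Postn, because the cells were collected by a reporter of its expression, and for Ccn1, because Ccn1 is set against Ccn2 further on. RefSeq gives windows for 6 of the 10 genes, and 2 start sites for Postn. Each line is the 250 bases before a start site, 5′ to 3′ on the gene's strand, with matches to the first 4 of 6 searched motifs in capitals.
Postn, first start site, chr3:54359017-54359266, plus strand: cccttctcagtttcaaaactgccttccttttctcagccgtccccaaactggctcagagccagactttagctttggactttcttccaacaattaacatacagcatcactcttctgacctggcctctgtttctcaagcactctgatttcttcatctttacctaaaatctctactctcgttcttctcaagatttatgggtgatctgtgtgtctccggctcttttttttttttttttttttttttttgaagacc
Postn, second start site, chr3:54360857-54361106, plus strand: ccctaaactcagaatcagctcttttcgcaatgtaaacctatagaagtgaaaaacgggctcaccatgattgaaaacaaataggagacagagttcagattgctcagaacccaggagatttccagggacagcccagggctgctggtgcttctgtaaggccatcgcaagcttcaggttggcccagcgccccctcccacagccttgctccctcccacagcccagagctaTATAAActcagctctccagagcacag
Ccn1, chr3:145649986-145650235, minus strand: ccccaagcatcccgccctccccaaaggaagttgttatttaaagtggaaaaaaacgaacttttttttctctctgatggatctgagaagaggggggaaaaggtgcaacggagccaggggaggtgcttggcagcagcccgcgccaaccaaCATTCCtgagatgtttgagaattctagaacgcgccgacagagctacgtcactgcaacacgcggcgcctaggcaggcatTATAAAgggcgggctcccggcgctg
The motifs searched on both strands were TATAAA (a core promoter element), GGAATG (bound by TEAD factors, the DNA-binding partners of YAP), TGANTCA (bound by AP-1), the CArG box of SRF, and, left in lower case, GGGCGG (bound by SP1) and CAGACA (bound by SMAD factors). The second Postn window holds TATAAA from 26 to 21 bases before the start and none of the others, and the first holds none of the 6. The Ccn1 window holds TATAAA from 25 to 20 bases before the start and GGAATG on the other strand, read here as CATTCC, from 103 to 98 bases before it. It also holds GGGCGG from 19 to 14 bases before the start and, on the other strand, at -239 to -234 counted from the start. Of 32851 windows of this length, 12.4% hold TATAAA, 12.6% hold GGAATG, 6.75% hold TGANTCA, 1.47% hold a CArG box, 32.7% hold GGGCGG and 17.1% hold CAGACA, and a match is a description of letters, not of a bound site.

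Depth differed widely and limits what the Pdpn-adjacent regions can show. The Pdpn-adjacent libraries held 22757 to 2271664 counts, and regions 2, 3 and 11, with 22757, 81760 and 30316, are called shallow here. The SMA-adjacent libraries held 760761 to 3086323. The lowest value in the table is 1, and 9 of the 10 genes stood at 1 in region 2, 7 in region 11 and 1 in region 3. Levels are given as CPM, in which libraries were made comparable by edgeR's TMM scaling, and as times background, the count over the geometric mean of the 210 negative-control probes of the region. In region 2 a single count equals 37.5 CPM and in region 11 34.3 CPM, so a value there is the lower end of the scale and not a measured level. Apart from Sparc and Sparcl1, the genes also rested on only 6 to 17 counts in region 7 and 13 to 37 in region 8. Mice cannot be assigned to regions from the labels and each group has more regions than mice, so some regions share a mouse. The p-values below take regions as independent, which can make them too small. Fewer cells of a type and less RNA per cell cannot be told apart in such pooled areas.

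Sparc and Sparcl1 were the 2 abundant genes of the 10, and the other 8 stayed at or below 5.94 times background in every region. Sparc, a collagen-binding glycoprotein of the matrix, was at 1.88 to 14.6 times background in the Pdpn-adjacent group against 5.26 to 17.7 times in the SMA-adjacent group. In the SMA-adjacent regions its count ranked between the 99.3 and 99.6 percentile of all endogenous probes. Sparcl1, also called hevin, stood at 0.952 to 6.39 times background in the Pdpn-adjacent group and 4.79 to 15.6 times in the SMA-adjacent group. Medians above 2 times background were found for 5 of the 10 genes in the 3 deeper Pdpn-adjacent regions (4, 7 and 8) and for 7 in the SMA-adjacent regions. Of all endogenous probes, 18.8% had such a median in the deeper Pdpn-adjacent and 17.9% in the SMA-adjacent regions. Of 110 pairs of gene and region, 43 exceeded the floor, set 2 SDs above the mean log2 count of the region's negative probes, as did 12.0% of the pairs over all endogenous probes. Tnc exceeded it in 0 of 11 regions and Sparc in 10. In shallow regions 2 and 11 a count of 2 exceeded the floor, while the 5 counts of Sparc in region 3 did not. Regions 2 and 11 gave 1 and 3 of the 43 pairs, and 10.0% and 22.4% of all endogenous probes exceeded the floor there. The levels are counts of different probes, whose capture differs, so the order is one of counts and not of transcript numbers.

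**Figure D1:**
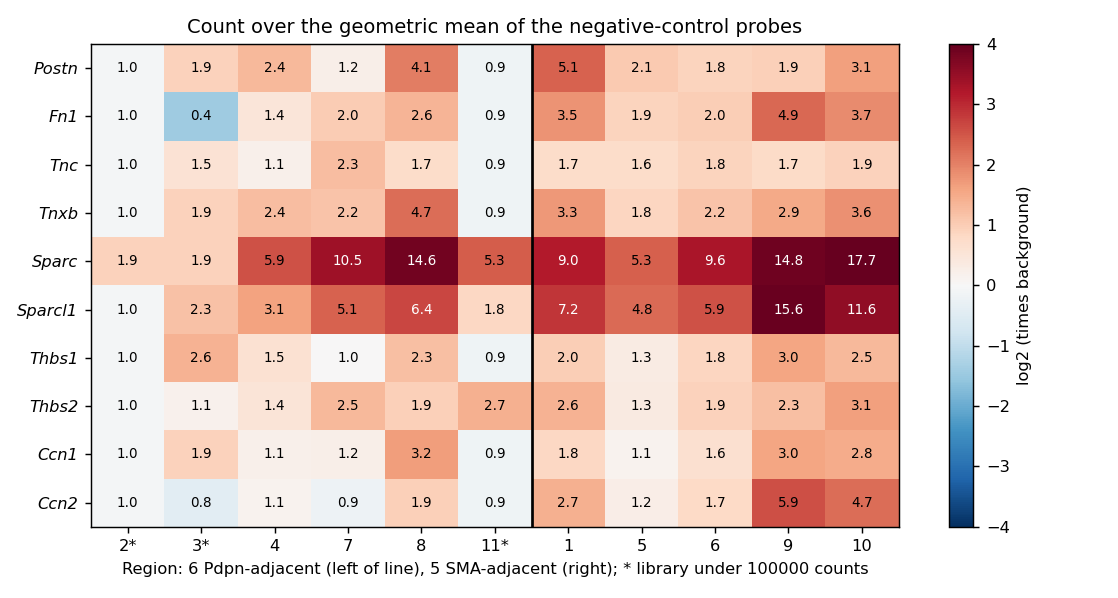
Count of each gene over the geometric mean of the negative-control probes (number in each cell, colour on a log2 scale) in the 6 Pdpn-adjacent regions left of the line and the 5 SMA-adjacent regions right of it, with asterisks on libraries under 100000 counts. Sparc and Sparcl1 have the highest values, up to 17.7 and 15.6, and in region 2 every gene other than Sparc stood at 0.952 times background.

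None of the 10 genes differed between the groups past the threshold. With edgeR's quasi-likelihood test, adjusted over 19935 probes, 0 of the 10 passed an adjusted p of 0.05, where 0.01% of all probes did. DESeq2 and limma-voom also called 0, and DESeq2 gave 4 of the 10 no adjusted p. All 10 log2 fold changes (Pdpn-adjacent minus SMA-adjacent) were below 0, as were 48.8% of those of all probes. The median of the 10 was -0.37 against 0.0056 over all probes. The equally weighted mean log2 CPM was lower for 10 of 10, against 53.7% of all probes. That count includes regions 2 and 11, where 9 and 7 of the 10 genes stood at the lowest value of 1. Of all probes, 90.0% and 77.6% stood at 1 there. Without regions 2, 3 and 11 the equally weighted mean was lower for 9 of the 10, and the share over all probes was not computed. At an unadjusted edgeR p under 0.05, 3 of the 10 were lower (Ccn2, Fn1 and Sparcl1), against 3.19% of all probes. At that p 0 were higher, against 2.84% (6.03% in either direction). An exact two-sided permutation test of mean log2 CPM, which weights each region equally, gave the same 3 genes an unadjusted p under 0.05, against 3.9% of all probes lower in Pdpn-adjacent regions. Adjusted over all probes, 0 of the 10 passed that test, as did 0.0% of all probes. No gene of the 10 had all 6 Pdpn-adjacent regions below or all above the SMA-adjacent ones, which held for 0.391% and 0.446% of all probes. With the 3 deeper Pdpn-adjacent regions alone the count was again 0 of 10, against 2.02% below and 2.39% above. The 10 genes come from the same regions, so their directions are not 10 separate observations.

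**Figure D2:**
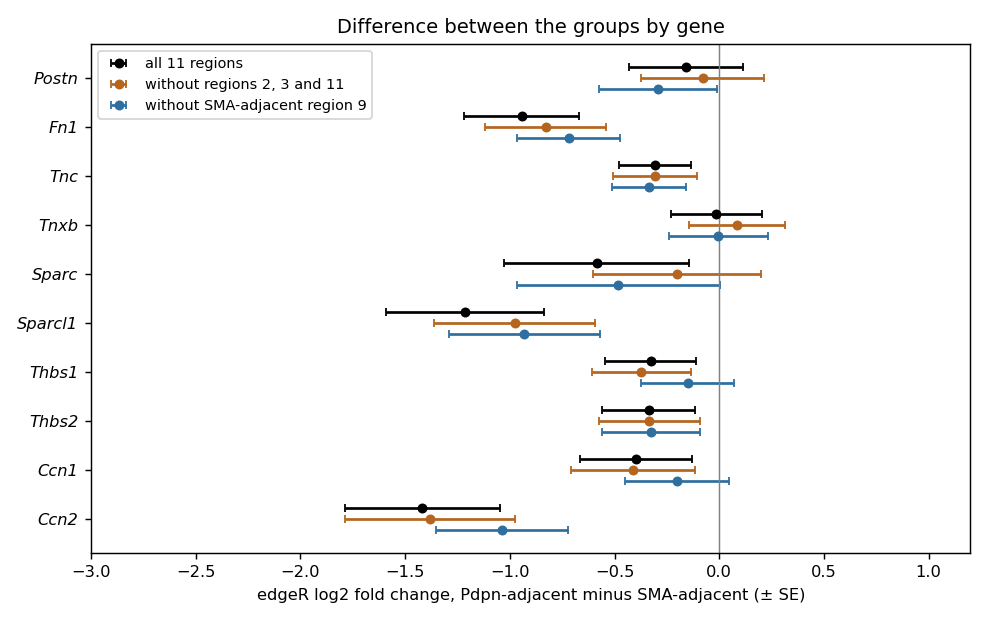
edgeR log2 fold change, Pdpn-adjacent minus SMA-adjacent, with its SE for each gene, over all 11 regions (black), without the shallow regions 2, 3 and 11 (brown) and without SMA-adjacent region 9 (blue). Ccn2, Sparcl1 and Fn1 lie farthest below 0, at -1.42, -1.21 and -0.94 over all regions, and Tnxb lies at -0.01.

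Postn itself was modest in both groups. It binds integrins, collagen and fibronectin and takes part in collagen crosslinking. In the deeper Pdpn-adjacent regions 4, 7 and 8 it had 80.5, 37.3 and 106 CPM, and in the shallow regions 2, 3 and 11 raw counts of 1, 5 and 1. In SMA-adjacent regions 1, 5, 6, 9 and 10 it had 153, 71.3, 58.6, 57.4 and 91.7 CPM. Region 1 was the highest of all 11, region 7 was the one deeper Pdpn-adjacent region below every SMA-adjacent one, and the groups overlapped. Postn averaged 59.6 ± 29.2 CPM (SD, n = 6) in Pdpn-adjacent and 86.4 ± 39.7 CPM (SD, n = 5) in SMA-adjacent regions. The deeper Pdpn-adjacent regions alone averaged 74.7 ± 34.9 CPM (SD, n = 3). Cells were collected by the Postn reporter, so a difference in Postn between the groups is not read as a finding. Postn was still among the probes tested and is included in the counts over the 10 genes. Over background it reached 4.09 times in region 8 and 5.13 times in region 1, and it exceeded the floor in 2 of 6 Pdpn-adjacent and 2 of 5 SMA-adjacent regions. The log2 fold change of the fit was -0.16 ± 0.27 SE, where SE is derived from the p and degrees of freedom of the fit. Without region 1 it was 0.11.

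Fibronectin had a lower mean in the Pdpn-adjacent regions, not past the threshold, and 3 of the 6 values there stood at the lowest count of the table. Fn1 encodes the adhesive glycoprotein whose fibrils bind collagen, periostin and tenascin-C. It had 46.0, 65.2 and 66.4 CPM in Pdpn-adjacent regions 4, 7 and 8, and a raw count of 1 in each of regions 2, 3 and 11. In SMA-adjacent regions 1, 5, 6, 9 and 10 it had 104, 63.6, 63.5, 146 and 109 CPM. Regions 5 and 6 lay at the level of Pdpn-adjacent regions 7 and 8, and regions 1, 9 and 10 lay above all others. Fn1 was beneath the whole SMA-adjacent range in 4 of 6 Pdpn-adjacent regions, and 10.9% of all probes had 4 or more such regions. Of those 4 only region 4 is a deeper library, and regions 7 and 8 lay above SMA-adjacent regions 5 and 6. The means were 43.6 ± 20.5 CPM over the 6 Pdpn-adjacent and 97.3 ± 34.9 CPM over the 5 SMA-adjacent regions (SD). The log2 fold change was -0.94 ± 0.27 SE (edgeR adjusted p = 0.398), and the exact permutation p was 0.0216 (0.614 adjusted over all probes). Without regions 2, 3 and 11, the deeper Pdpn-adjacent regions averaged 59.2 ± 11.4 CPM (SD, n = 3), and the exact permutation p was 0.125.

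Neither tenascin differed between the groups past the threshold. Tnc encodes tenascin-C, which is linked to tissue repair and to the stroma of growing ducts, and Tnxb encodes tenascin-X, which binds collagen fibrils of loose connective tissue. Tnc had 37.9, 74.5 and 43.2 CPM in Pdpn-adjacent regions 4, 7 and 8, with raw counts of 1, 4 and 1 in regions 2, 3 and 11, and 50.1, 56.2, 58.6, 51.1 and 54.7 CPM in SMA-adjacent regions 1, 5, 6, 9 and 10. Region 7 was the highest of all and the SMA-adjacent regions were even, with a highest value 1.17 times the lowest. Tnc stayed at 1.15 to 2.33 times background in the deeper Pdpn-adjacent regions and 1.65 to 1.88 times in the SMA-adjacent ones, so a difference in Tnc transcript was hardly detectable at this level. Its log2 fold change was -0.31 ± 0.17 SE (edgeR adjusted p = 0.910). Tnxb had 77.9, 69.8 and 123 CPM in regions 4, 7 and 8, with raw counts of 1, 5 and 1 in regions 2, 3 and 11, and 98.9, 62.4, 70.0, 85.7 and 104 CPM in the SMA-adjacent regions in the same order. Its highest value lay in Pdpn-adjacent region 8, and the ranges overlapped throughout. The Tnxb log2 fold change was -0.01 ± 0.22 SE (edgeR adjusted p = 1.00), and it was 0.086 without regions 2, 3 and 11.

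Within the SPARC family Sparcl1 was further apart between the groups than Sparc. Sparc had 193, 335 and 379 CPM in Pdpn-adjacent regions 4, 7 and 8, with raw counts of 2, 5 and 6 in regions 2, 3 and 11. In SMA-adjacent regions 1, 5, 6, 9 and 10 it had 269, 180, 307, 442 and 515 CPM. Regions 9 and 10 were the highest, and region 5 was below region 4, so the groups overlapped. Sparc averaged 208 ± 130 CPM over the 6 Pdpn-adjacent and 343 ± 135 CPM over the 5 SMA-adjacent regions (SD). The log2 fold change was -0.59 ± 0.44 SE (edgeR adjusted p = 0.956). Without regions 2, 3 and 11 it was -0.20, and the deeper Pdpn-adjacent regions averaged 302 ± 97.0 CPM (SD, n = 3). Sparcl1, whose protein takes part in collagen fibril assembly, had 101, 163 and 166 CPM in regions 4, 7 and 8, with raw counts of 1, 6 and 2 in regions 2, 3 and 11. It had 215, 164, 188, 465 and 338 CPM in the SMA-adjacent regions in the same order. Regions 9 and 10 again stood highest, and only region 8 of the 6 Pdpn-adjacent regions exceeded an SMA-adjacent one, region 5. Of all probes, 2.82% had 5 or more of the 6 Pdpn-adjacent values beneath the whole SMA-adjacent range, as Sparcl1, Ccn2 and Tnc did. For each of these genes the shallow regions 2, 3 and 11 were among the 5, with raw counts of 1 to 6. Values at 1 count there were set by the scale, so the share is not read as support for a difference. Tnc exceeded the floor in 0 of 11 regions and was highest in Pdpn-adjacent region 7. Sparcl1 averaged 102 ± 52.7 CPM over the 6 Pdpn-adjacent and 274 ± 126 CPM over the 5 SMA-adjacent regions (SD). The log2 fold change was -1.21 ± 0.38 SE (edgeR adjusted p = 0.476). The exact permutation p was 0.0130 (0.609 adjusted over all probes), and 0.125 without regions 2, 3 and 11.

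Both thrombospondins were low and did not differ past the threshold. Thbs1 encodes thrombospondin 1, which can activate latent transforming growth factor beta and restrains vessel growth through CD36 and CD47, and Thbs2 encodes its relative, which lacks the activating sequence. Thbs1 had 50.3, 32.6 and 59.8 CPM in Pdpn-adjacent regions 4, 7 and 8, with raw counts of 1, 7 and 1 in regions 2, 3 and 11, and 59.3, 43.3, 57.6, 88.5 and 71.7 CPM in SMA-adjacent regions 1, 5, 6, 9 and 10. Its highest value was in region 9, the groups overlapped, and the 7 counts of region 3 equal 86.4 CPM. The log2 fold change of Thbs1 was -0.33 ± 0.22 SE (edgeR adjusted p = 0.931), and without SMA-adjacent region 9 it was -0.15. Thbs2 had 46.9, 79.2 and 49.8 CPM in regions 4, 7 and 8, with raw counts of 1, 3 and 3 in regions 2, 3 and 11, and 77.8, 44.3, 60.1, 68.4 and 90.9 CPM in the SMA-adjacent regions. Its highest value of all, 103 CPM, was the 3 counts of region 11. For Thbs2 the log2 fold change was -0.34 ± 0.22 SE (edgeR adjusted p = 0.928).

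Of the CCN genes Ccn2 had the larger fold change, lower in the Pdpn-adjacent regions, and the smallest p of the 10 genes. Both are early targets of YAP and of transforming growth factor beta or serum, and both proteins bind integrins. Ccn2 is also known as connective tissue growth factor. Ccn2 had 36.1, 27.9 and 49.8 CPM in Pdpn-adjacent regions 4, 7 and 8, with raw counts of 1, 2 and 1 in regions 2, 3 and 11. It had 79.1, 41.2, 55.6, 177 and 138 CPM in SMA-adjacent regions 1, 5, 6, 9 and 10. Regions 9 and 10 stood far above the rest, region 9 was 4.30 times region 5, and only Pdpn-adjacent region 8 exceeded region 5. Over background Ccn2 stood at 0.873 to 1.92 times in the deeper Pdpn-adjacent regions, none of which passed the floor, and at 1.21 to 5.94 times in the SMA-adjacent regions, of which 3 did. Ccn2 averaged 35.1 ± 8.77 CPM over the 6 Pdpn-adjacent and 98.3 ± 57.6 CPM over the 5 SMA-adjacent regions (SD). Its log2 fold change was -1.42 ± 0.37 SE (edgeR adjusted p = 0.217). The exact permutation p was 0.00433 (0.609 adjusted over all probes), where the smallest possible is 0.00216, and it was 0.0893 without regions 2, 3 and 11. The call turned on 1 library: without SMA-adjacent region 5 the edgeR adjusted p was 0.0207, and over the 23 alternatives it ran from 0.0207 to 1.00. Without that region the fit called 53 of all probes, against 2 with all regions. With background subtracted in the 8 deeper libraries the log2 fold change was -4.17 ± 1.32 SE (edgeR adjusted p = 1.00). The Ccn2 counts of Pdpn-adjacent regions 4 and 7, 84 and 6, lay below the means of their negative probes, 84.2 and 7.92. They became 0 in that fit, so its fold change is not a measured size.

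Ccn1 was low and overlapped between the groups, at 1.15 to 3.19 times background in the deeper Pdpn-adjacent regions and 1.10 to 2.99 times in SMA-adjacent ones. It had 37.9, 37.3 and 83.1 CPM in Pdpn-adjacent regions 4, 7 and 8, with raw counts of 1, 5 and 1 in regions 2, 3 and 11, and 52.7, 37.5, 50.1, 89.1 and 81.3 CPM in SMA-adjacent regions 1, 5, 6, 9 and 10. Regions 8, 9 and 10 were the highest, region 5 was level with regions 4 and 7, and the groups overlapped. Its log2 fold change was -0.40 ± 0.27 SE (edgeR adjusted p = 0.935), and -0.20 without SMA-adjacent region 9.

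**Figure D3:**
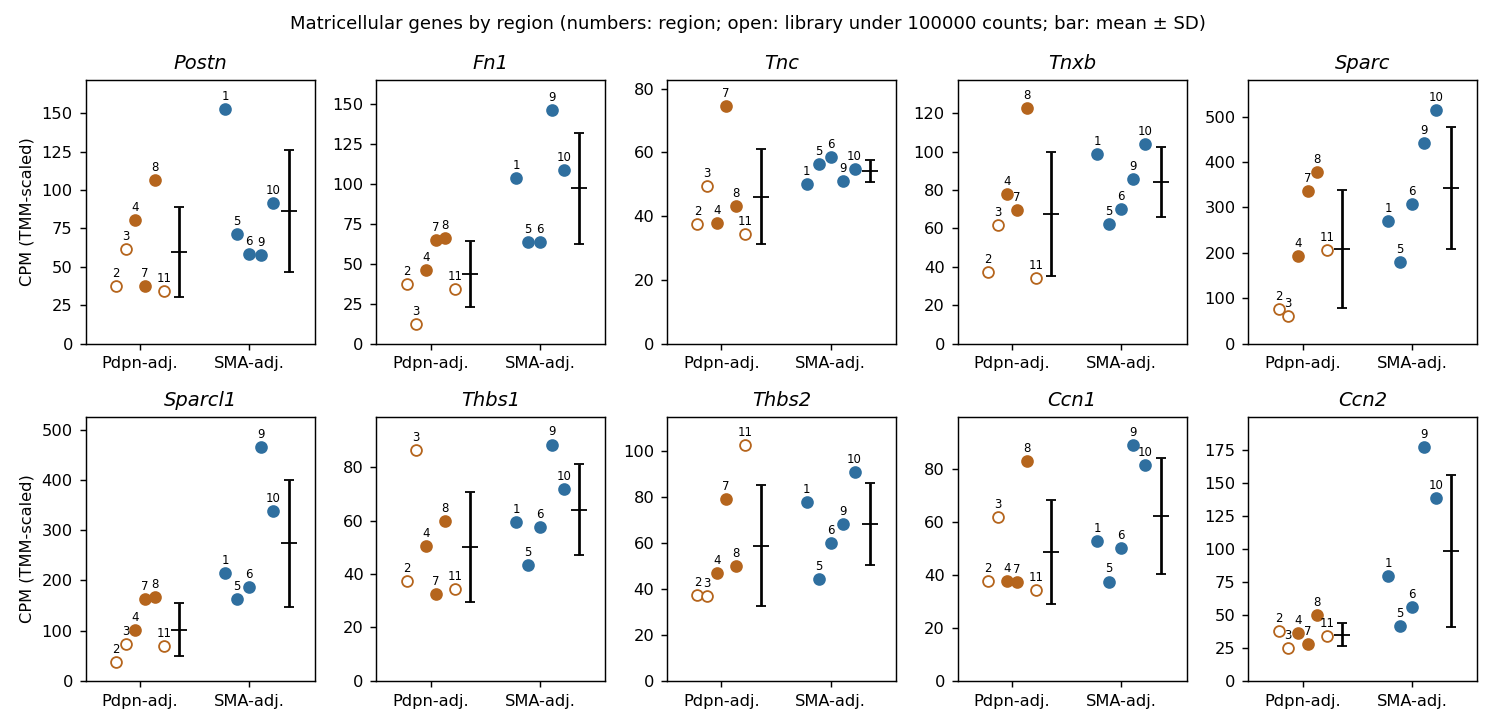
CPM of each gene in each region, Pdpn-adjacent (brown) left of SMA-adjacent (blue), with the region number above each point, open points for libraries under 100000 counts and a bar for mean ± SD (n = 6 and n = 5). Ccn2 and Sparcl1 have their highest values in SMA-adjacent region 9, at 177 and 465 CPM, and Postn in SMA-adjacent region 1, at 153 CPM.

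Ratios of related genes within a region, which do not depend on how libraries are scaled, separated the groups for Ccn1 over Ccn2 when all 11 regions were used. The 4 ratios were Ccn1/Ccn2, Sparc/Sparcl1, Thbs1/Thbs2 and Tnc/Tnxb, each a ratio of raw counts. Ccn1/Ccn2 was 1.05, 1.33 and 1.67 in Pdpn-adjacent regions 4, 7 and 8, and 2.50 in region 3, where it rests on 5 counts against 2. It was 1.00 in regions 2 and 11, where both genes stood at the lowest value of 1, so these 2 ratios are fixed by the scale and not measured. The SMA-adjacent regions 1, 5, 6, 9 and 10 had ratios of 0.667, 0.910, 0.902, 0.503 and 0.588. Every SMA-adjacent ratio was below 1 and the 4 other Pdpn-adjacent ratios were above it. The mean log2 ratio was 0.42 ± 0.53 in Pdpn-adjacent (SD, n = 6) and -0.53 ± 0.38 in SMA-adjacent regions (SD, n = 5), a difference of 0.95 (exact permutation p = 0.00216, the smallest possible, adjusted p = 0.00866 over the 4 ratios). That p counts the 2 fixed ratios as observations. Without the shallow regions the difference was 0.93 (exact permutation p = 0.0357, adjusted p = 0.0714), where 3 against 5 regions allow no p below 0.0179. The adjusted p was also above 0.05, at 0.0762, without SMA-adjacent region 1, 9 or 10. Ccn1 exceeded the floor in 1 and Ccn2 in 0 of the 6 Pdpn-adjacent regions, against 2 and 3 of the 5 SMA-adjacent ones, and the part of background signal in the ratio was not tested.

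The other ratios did not differ past the threshold over all 11 regions. Sparc/Sparcl1 was 1.91, 2.06 and 2.28 in Pdpn-adjacent regions 4, 7 and 8, and 1.25, 1.10, 1.63, 0.951 and 1.53 in SMA-adjacent regions 1, 5, 6, 9 and 10. All 3 deeper Pdpn-adjacent regions were above all SMA-adjacent ones, and region 3, at 0.833, was below them. The difference in mean log2 ratio was 0.57 (exact permutation p = 0.102, adjusted p = 0.203). Without regions 2, 3 and 11 it was 0.71 and again not past the threshold (exact permutation p = 0.0357, adjusted p = 0.0714). It passed when region 3, the low one, was left out alone, at 0.81 (exact permutation p = 0.00794, adjusted p = 0.0159). That comparison kept shallow regions 2 and 11, whose ratios of 2.00 and 3.00 rest on 2 counts against 1 and 6 against 2. Thbs1/Thbs2 and Tnc/Tnxb differed by -0.12 and 0.15, with an exact permutation adjusted p of 0.855 for each.

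**Figure D4:**
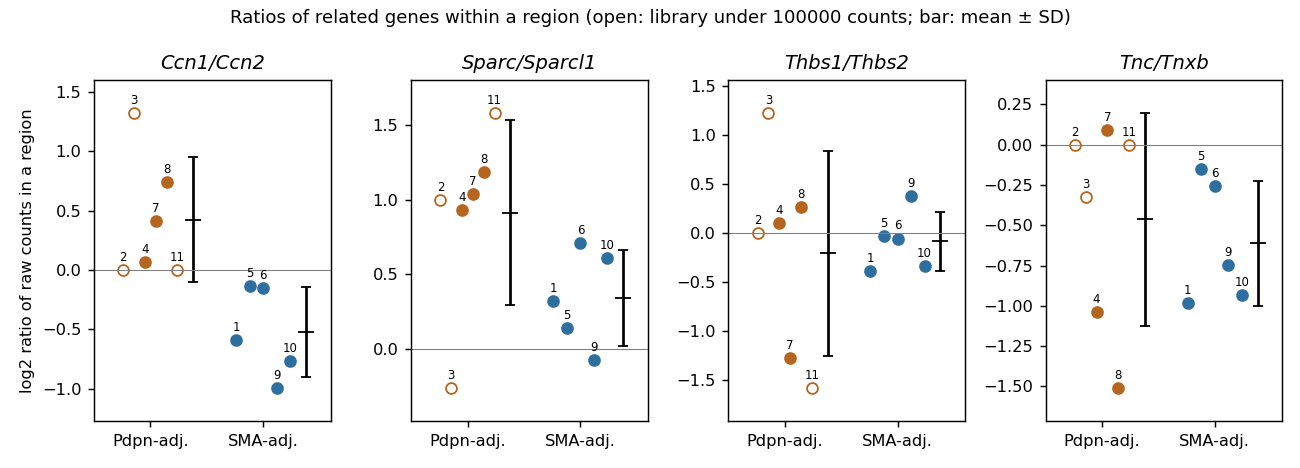
log2 ratio of the raw counts of related genes within each region, Pdpn-adjacent (brown) left of SMA-adjacent (blue), with region numbers, open points for libraries under 100000 counts and a bar for mean ± SD. For Ccn1/Ccn2 all Pdpn-adjacent points lie at or above 0 and all SMA-adjacent points below it, from -0.99 to -0.14.

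Sums of smooth muscle, blood endothelial and fibroblast markers moved with Sparcl1, Fn1 and Ccn2. Those of smooth muscle and fibroblasts hardly moved with Postn. Taken singly, 9 of 11, 9 of 10 and 9 of 11 of these markers had log2 fold changes below 0, against 48.8% of all probes. The exceptions were Des, Rgs5, Kdr, Dpp4 and Pdgfrb, at 0.60, 0.13, 0.12, 0.072 and 0.0014. Acta2, which encodes the stained smooth muscle actin, was at 37.5 to 321 CPM in Pdpn-adjacent and 442 to 2609 CPM in SMA-adjacent regions. The 37.5 CPM was the single count of shallow region 2. The SMA-adjacent regions were chosen by that stain, so this complete separation, found in 0.391% of all probes, is not read as a finding. The 11 smooth muscle and pericyte markers, Acta2 among them, summed to 488 to 1504.0 CPM in Pdpn-adjacent and to 1504.4 to 6419 CPM in SMA-adjacent regions. None was at 0 since the lowest value in the table is 1. The 488 CPM was that of shallow region 2, where a single count equals 37.5 CPM, so it was not a measured level. The 1504.0 CPM was that of region 7, where fast skeletal muscle markers summed to 10645 CPM. The part of skeletal muscle in the smooth muscle sum was not tested. SMA-adjacent regions 9 and 10 had the highest smooth muscle and pericyte sums, at 6419 and 3375 CPM. In region 9 Acta2 alone held 2609 CPM of the sum. Over the 8 deeper regions, Pearson's r between log2 CPM and the log2 of that sum was 0.98 for Sparcl1, 0.94 for Fn1, 0.87 for Ccn2, 0.65 for Thbs1, 0.64 for Sparc, 0.62 for Thbs2, 0.60 for Ccn1, 0.33 for Tnc, 0.11 for Tnxb and -0.11 for Postn. Over the 5 SMA-adjacent regions alone it was 0.99 for Sparcl1, 0.96 for Ccn2, 0.95 for Thbs1, 0.94 for Ccn1, 0.92 for Fn1, 0.80 for Sparc, 0.53 for Thbs2 and for Tnxb, -0.22 for Postn and -0.55 for Tnc. Blood endothelial markers (10 genes) summed to 375 to 973 CPM in Pdpn-adjacent and 720 to 1327 CPM in SMA-adjacent regions, and their r over the 8 regions was 0.92 for Fn1, 0.87 for Ccn2, 0.83 for Sparcl1, 0.49 for Postn and -0.03 for Tnc, with the other 5 genes between 0.66 and 0.80. Fibroblast markers (11 genes) summed to 413 to 2310 CPM in Pdpn-adjacent and 1759 to 4495 CPM in SMA-adjacent regions, with an r of 0.86 for Fn1 and Sparcl1, 0.85 for Thbs2, 0.82 for Ccn2, 0.81 for Sparc and 0.19 for Postn. Adipocyte markers (6 genes) summed to 225 to 7520 CPM in Pdpn-adjacent and 3733 to 8904 CPM in SMA-adjacent regions, and fast skeletal muscle markers (8 genes) to 286 to 24021 CPM and 275 to 3179 CPM in the same order of groups. The sums of 375, 413 and 225 CPM were those of shallow region 2, where every marker of these lists stood at 1 count, so they were not measured levels. In Pdpn-adjacent regions 4, 7 and 8 blood endothelial markers summed to 636, 740 and 973 CPM and fibroblast markers to 1444, 2310 and 2213 CPM. The values of r describe regions that share mice, depth and background, and the part of these cells in the differences was not tested. The 7 lymphatic endothelial markers averaged 0.952 to 1.73 times background in the Pdpn-adjacent group and 1.43 to 1.71 times in the SMA-adjacent group. In the 3 deeper Pdpn-adjacent regions 0 of 7 had a median above 2 times background, against 18.8% of all endogenous probes. In the SMA-adjacent regions it was again 0 of 7, against 17.9%. Pdpn, the stained marker, is 1 of them, at 12.3 to 52.9 CPM in Pdpn-adjacent and 46.6 to 56.9 CPM in SMA-adjacent regions. Pdpn stood at 1 count in regions 2, 3 and 11 and exceeded the floor in 0 of 11 regions. Its log2 fold change was -0.19 ± 0.28 SE, so these ranges do not show a difference in Pdpn transcript.

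**Figure D5:**
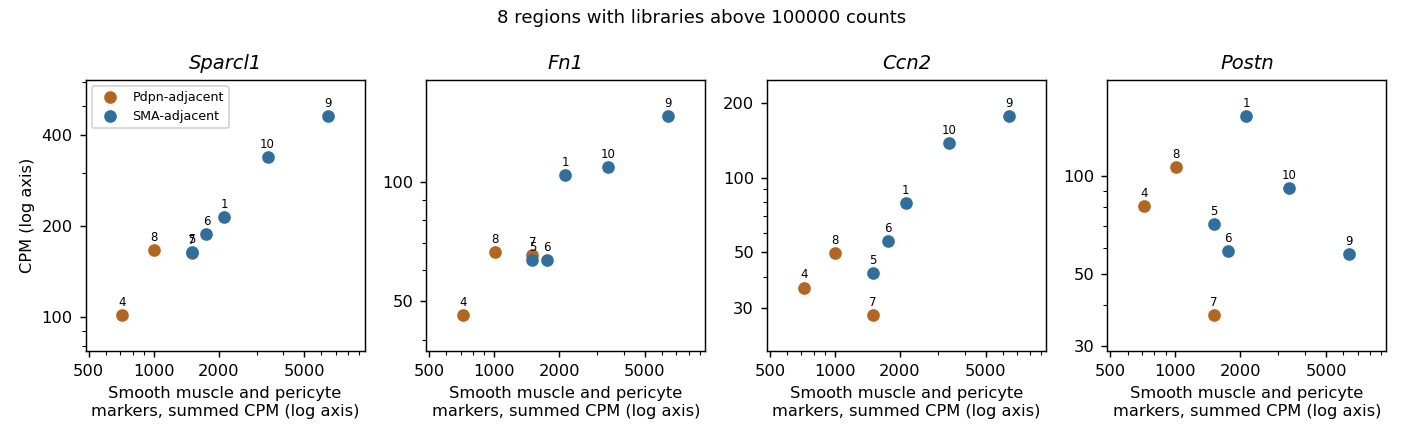
CPM of 4 genes against the summed CPM of 11 smooth muscle and pericyte markers in the 8 regions with libraries above 100000 counts (log axes, region numbers beside the points, Pdpn-adjacent in brown and SMA-adjacent in blue). Sparcl1, Fn1 and Ccn2 are highest in region 9, where the markers sum to 6419 CPM, and Postn is highest in region 1.

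Among themselves the genes fell into those that varied together and those that did not. Over the 8 deeper regions the highest values of r between 2 of the 10 genes were 0.96 for Fn1 with Sparcl1, 0.92 for Sparcl1 with Ccn2, 0.92 for Thbs1 with Ccn2 and 0.91 for Fn1 with Ccn2. Of the SMA-adjacent regions, region 9 held the highest CPM for 5 of the 10 genes (Fn1, Sparcl1, Thbs1, Ccn1 and Ccn2) and region 10 for 3 (Tnxb, Sparc and Thbs2). Ccn2 in region 9 was 2.26 times the mean of the other SMA-adjacent regions, Sparcl1 2.06 times and Postn 0.613 times. Among 3498 probes with a median above 2 times background in the 8 regions, those most like Postn were Aida, Efemp1 and Sppl3 (r = 0.94, 0.92 and 0.92). Efemp1 encodes fibulin-3, a matrix glycoprotein. Those most like Fn1 were Crip1, Nr2f2 and Sparcl1 (r = 0.97, 0.96 and 0.96), where Nr2f2 encodes COUP-TFII, a nuclear receptor of venous and lymphatic endothelium and of stroma. Those most like Ccn2 were Pdlim5, Septin7 and Pam (r = 0.98, 0.97 and 0.97), and Pdlim5, a scaffold protein of actin filaments, averaged 113 ± 2.47 CPM (SD, n = 3) in the deeper Pdpn-adjacent and 123 ± 10.5 CPM (SD, n = 5) in SMA-adjacent regions. Ccn2 itself had a median below 2 times background, and these rankings rest on 8 regions.

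The genes that work with these proteins also gave 0 calls with edgeR. Of 27 other matricellular genes, 19 had log2 fold changes below 0 and 7 were lower at an unadjusted p under 0.05, with a median of -0.22. The smallest p among them belonged to Fbln5 (-0.75 ± 0.23 SE, edgeR adjusted p = 0.452), whose protein organises elastic fibres, Smoc2 (-0.61 ± 0.20 SE, 0.589), a member of the SPARC family, and Fstl1 (-0.76 ± 0.26 SE, 0.627), another secreted SPARC relative. Of 24 receptors, 15 were below 0 and 5 lower at an unadjusted p under 0.05, with a median of -0.13. Itga8, the integrin subunit that binds fibronectin and tenascin-C and is known from smooth muscle and fibroblasts, had -1.21 ± 0.31 SE (edgeR adjusted p = 0.205). Itgb1, the shared integrin beta subunit, had -0.77 ± 0.27 SE (edgeR adjusted p = 0.647), and Sdc2, a heparan sulphate proteoglycan, -0.70 ± 0.26 SE (edgeR adjusted p = 0.660).

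Of 28 factors and targets of YAP and SRF, 20 were below 0, and at an unadjusted p under 0.05 there were 2 lower and 1 higher, with a median of -0.16. Klf2, a flow-responsive transcription factor, had -0.76 ± 0.28 SE and Crim1, a transmembrane protein that binds bone morphogenetic proteins, -0.70 ± 0.26 SE (edgeR adjusted p = 0.694 for each). Tead2, a partner of YAP, had 0.38 ± 0.15 SE (edgeR adjusted p = 0.759). Of 18 genes of the transforming growth factor beta pathway, 11 were below 0 and 2 lower at an unadjusted p under 0.05, with a median of -0.13. The smallest p belonged to Ltbp4, a binding protein of the latent growth factor, at -1.26 ± 0.41 SE (edgeR adjusted p = 0.586). Smad7, an inhibitor of the pathway, had -0.49 ± 0.19 SE (edgeR adjusted p = 0.710), and the ligand Tgfb3 had -0.40 ± 0.21 SE (edgeR adjusted p = 0.860). Of 18 matrix partners, among them collagens and elastin, 15 were below 0 and 7 lower at an unadjusted p under 0.05, with a median of -0.39. Bgn, the proteoglycan biglycan, had -1.29 ± 0.34 SE (edgeR adjusted p = 0.237) and was called by DESeq2, the only gene of the 5 lists that DESeq2 or limma-voom called. DESeq2 gave no adjusted p for 7 of these 18 genes, 22 of the 27 other matricellular genes, 20 of the 24 receptors, 16 of the 28 YAP and SRF genes and 14 of the 18 growth factor pathway genes, so it made no call on most genes of 4 of the lists. Eln, elastin, had -1.30 ± 0.38 SE (edgeR adjusted p = 0.403), and Tgm2, the transglutaminase that crosslinks fibronectin, -0.73 ± 0.26 SE (edgeR adjusted p = 0.647). Of all probes 3.19% were lower and 2.84% higher at an unadjusted p under 0.05.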

How the data were processed

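The authors deposited raw counts per probe and region with no normalization, judged from the values (whole numbers, the lowest 1, totals that differ between columns). Probe positions use GRCm38.p6 coordinates per the file headers. The steps from reads to counts are not given in the sources used here. The labels speak of 12 collected areas, of which 11 were analysed here. The 19965 endogenous probes were filtered with filterByExpr (19935 kept), scaled by TMM and tested with the quasi-likelihood test of edgeR 4.0.16 in R 4.3.3, with Benjamini-Hochberg adjustment over all probes and a threshold of 0.05. The permutation test used log2 CPM with a prior count of 2 and all 462 choices of regions, two-sided. DESeq2 1.42.0 and limma 3.58.1 were alternatives. The 10 genes, the gene lists, the tests and the alternatives were chosen with earlier results of these data known. Genes named from a list are its 3 of smallest p, and those named as alike are the 3 of highest r. Replicates are regions, which may share a mouse, so p-values measure the spread between regions. Counting precision was low in the shallow regions, and whether duplicate reads were removed is not given.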

Additional observations from a re-analysis of the deposited data

Results flagged for a closer look

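The Sparc/Sparcl1 ratio of Pdpn-adjacent region 3 lay far from those of the other 5 Pdpn-adjacent regions. Its log2 ratio was -0.263, the next was 0.934, and the gap took up 0.648 of the group's range. Region 3 held 5 counts of Sparc and 6 of Sparcl1, in a library of 81760 counts. Of 28 groups of values looked at this was the 1 set apart in this way. Chance sets apart about 1 group in 20, so 1 of 28 is no more than chance would give.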

How the results depend on the processing

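The 23 alternatives to the edgeR fit called 0 of the 10 genes, except that leaving out SMA-adjacent region 5 called Ccn2, so leaving out 1 region gave 0 to 1 calls. Calls over all probes, 2 with all regions, ran from 1 to 53 when 1 region was left out, with the 53 from leaving out SMA-adjacent region 5. They came to 17 with DESeq2, 0 with limma-voom or background subtraction, 44 with a covariate for the negative-probe level, 13 without regions 4 and 8, 14 without regions 3 and 7, and 1 with upper-quartile or negative-probe scaling, without regions 2, 3 and 11, or without those and region 9, the last chosen after seeing the data. Ccn2, Sparcl1, Fn1, Sparc and Thbs1 kept log2 fold changes below 0 in all 23. Leaving out 1 region gave Postn -0.32 to 0.11 and Tnxb -0.22 to 0.078. Signs turned for Postn without regions 3 and 7 (0.024), for Tnc and Thbs2 without regions 4 and 8 (0.17 and 0.012) and for Ccn1 with limma-voom (0.022), which moved the median of all probes to 0.14. Tnxb turned to 0.0095 with limma-voom, 0.086 without regions 2, 3 and 11 (0.080 as a difference in mean log2 CPM), 0.080 without regions 3 and 7, 0.14 with background subtracted, 0.090 with the covariate and 0.093 without regions 2, 3, 9 and 11, and the cause was not tested. The equally weighted test called 0 of the 10 in all 16 alternatives. Leaving out 1 region gave differences of 0.77 to 1.05 for the log2 ratio Ccn1/Ccn2, 0.44 to 0.81 for Sparc/Sparcl1, -0.41 to 0.15 for Thbs1/Thbs2 and 0.038 to 0.36 for Tnc/Tnxb. Without regions 2, 3 and 11 Ccn1/Ccn2 was 0.93 and no longer past the threshold, with 3 against 5 regions, and Tnc/Tnxb turned to -0.21. With a floor of 3 SDs, 27 pairs of gene and region exceeded it in place of 43. No paired analysis was possible because the labels do not tie regions to mice, and the region numbers are serial and shared by no 2 regions.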
